A study of Danio rerio with 4 samples.

Results

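The atrioventricular canal patterning genes are 7 zebrafish genes that mark or shape the boundary between atrium and ventricle: the ligand gene bmp4, the T-box repressor genes tbx2a, tbx2b and tbx3a, the hyaluronan synthase gene has2 and the versican genes vcana and vcanb. They were taken by symbol from the deposited expression table, and all 7 were among its 18105 genes. The table holds 4 RNA-seq libraries of ventricular cardiomyocytes sorted by fluorescence from hearts of adult zebrafish (Danio rerio), 2 per group. Cells of the first group carried both tp1:EGFP and myl7:DsRed2-NLS (genotype tp1:EGFP+/myl7:DsRed2-NLS+, 2000 cells, called tp1:EGFP+ here). Cells of the second group carried myl7:EGFP (genotype myl7:EGFP+, 7000 cells). The tp1 promoter responds to Notch and the myl7 promoter is active in cardiomyocytes, so both sorts select cardiomyocytes and only the first selects for Notch reporter activity. The myl7:EGFP+ sort does not exclude reporter-active cells, and the labels give no age beyond adult, no strain and no number of fish per library. The comparison sets cardiomyocytes with Notch reporter activity against a general sort of cardiomyocytes. The groups also differ in their transgenes and in the number of cells sorted, which cannot be told apart from reporter activity.

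In the embryonic heart, the myocardium of the canal stays apart from the working myocardium of the chambers. BMP ligands made by canal myocardium act through receptor-activated Smads to induce Tbx2 and Tbx3, which in mouse repress chamber genes such as Nppa and Gja5. The canal is also rich in hyaluronan, made by has2, and in versican, a proteoglycan that binds hyaluronan, and this matrix swells the cushions from which valves form. In zebrafish embryos bmp4 and vcana transcripts become restricted to the canal myocardium, and in mouse the Notch targets Hey1 and Hey2 keep Bmp2 and Tbx2 out of the chambers.

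The values are read counts that the authors scaled between libraries and rounded to whole numbers, called normalized counts below. They summed to 1660511 and 2041552 in tp1:EGFP+ replicates 1 and 2, and to 1552636 and 2130733 in myl7:EGFP+ replicates 1 and 2. In both replicate 2 columns nearly all low values lay on multiples of one step, which gives the worth of 1 read as 2.98 normalized counts in tp1:EGFP+ and 3.11 in myl7:EGFP+. Those libraries then held about 685085 and 685123 reads, so reads per gene can be set side by side between them. In the replicate 1 columns 1222 genes in tp1:EGFP+ and 1506 in myl7:EGFP+ had a value of 1, against 0 genes in either replicate 2 column. The search covered only steps of 2 or more, so it could not give the worth of 1 read in replicate 1. Of the cardiomyocyte markers, all 13 tested genes missed the threshold of the comparison, which 34.1% of all tested genes met. With no filter on low values 1 of 14 was called lower (7.14%, against 25.7% of all genes). Their list summed to 32799 and 67035 normalized counts in tp1:EGFP+ against 30732 and 64914 in myl7:EGFP+. Some errors were wide, so differences could be missed: myl7 had 765 and 3916 in tp1:EGFP+ against 565 and 4206 in myl7:EGFP+ (log2(value + 1) difference 0.17 ± 1.28 SE). For myh7 the values were 3830 and 11924 against 2312 and 4203 (1.12 ± 1.12 SE). For ttn.2 they were 18845 and 23416 against 18257 and 22692 (0.05 ± 3.585 SE). The fitted error of ttn.2 was far wider than the spread between its replicates. The test could hardly call such a gene, so its missed threshold says little about a difference. Levels are compared between groups within a gene and not between genes, because the table gives no transcript lengths. Coordinates are those of the table, for which the submitters' processing notes list GRCz11.

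Both bmp4 and has2 were higher in tp1:EGFP+ cells, and both were listed at 0 in each myl7:EGFP+ library. The other 5 canal genes had a mean under 10 normalized counts over the 4 libraries and were not tested, as were 39.4% of the 16374 genes with any value above 0. Of these low genes, tbx2b and vcanb had higher values in tp1:EGFP+, vcana and tbx2a were listed at 0 there, and tbx3a was at or next to 0 in all 4 libraries. For bmp4 and has2 the tp1:EGFP+ values alone carried the mean past the filter, so genes like these reach the test only when they differ, and their number is no result about the group of 7. By limma with Benjamini-Hochberg adjustment over all tested genes, 16.1% of 9921 genes were higher and 18.0% lower in tp1:EGFP+ at an adjusted p below 0.05.

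The gene bmp4 (ENSDARG00000019995, chromosome 17, 50564070 to 50586135, plus strand), which encodes the BMP ligand of canal myocardium, had 103 and 60 normalized counts in tp1:EGFP+ replicates 1 and 2 against 0 and 0 in myl7:EGFP+. The groups did not overlap, and replicate 1 was the higher of the tp1:EGFP+ pair. The mean was 81.5 ± 30.4 in tp1:EGFP+ and 0 in myl7:EGFP+ (SD, n = 2 each). In the replicate 2 libraries this amounts to about 20 reads in tp1:EGFP+ (exact Poisson 95% interval 12.2 to 30.9) and 0 reads in myl7:EGFP+. A count of 0 allows up to about 3 reads at a 1-sided 95% limit, whereas the intervals are 2-sided. The fitted difference on the log2(value + 1) scale was 6.32 ± 0.49 (SE; 95% interval 5.06 to 7.57; limma adjusted p = 0.00213). Because 1 group is at 0, its size follows the added constant and is no fold change: it was 3.15 with a constant of 10 and 7.31 with 0.5. Leaving out either tp1:EGFP+ library kept the call (limma adjusted p = 0.00209 without replicate 1 and 0.00185 without replicate 2), but the spread then came from the pair of zeros in myl7:EGFP+ alone. Leaving out myl7:EGFP+ replicate 1 or 2 ended it (limma adjusted p = 0.0807 and 0.0868) with the difference still at 6.32.

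The gene has2 (ENSDARG00000036987, chromosome 16, 15369634 to 15387459, minus strand) encodes the enzyme that makes hyaluronan at the cell membrane, and loss of it in zebrafish embryos disturbs canal and valve formation. It had 48 and 21 normalized counts in tp1:EGFP+ against 0 and 0 in myl7:EGFP+, and again the groups did not overlap. The tp1:EGFP+ mean was 34.5 ± 19.1 (SD, n = 2), and the value in replicate 2 stands for about 7 reads (exact Poisson 95% interval 2.81 to 14.4). Against it stand 0 reads in myl7:EGFP+ replicate 2, which allows up to about 3 at the same 1-sided limit. The fitted log2(value + 1) difference was 5.04 ± 0.53 (SE; 95% interval 3.67 to 6.40; limma adjusted p = 0.00352), and it was 2.08 with an added constant of 10 and 6.01 with 0.5. As for bmp4, the call ended without myl7:EGFP+ replicate 1 or 2 (limma adjusted p = 0.101 and 0.114) and held without either tp1:EGFP+ library. The pattern of 0 in both myl7:EGFP+ libraries and values above 0 in both tp1:EGFP+ libraries was shared by 786 of the 16374 genes with any value (4.80%), and by 233 of the 9921 tested genes (2.35%).

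**Figure D1:**
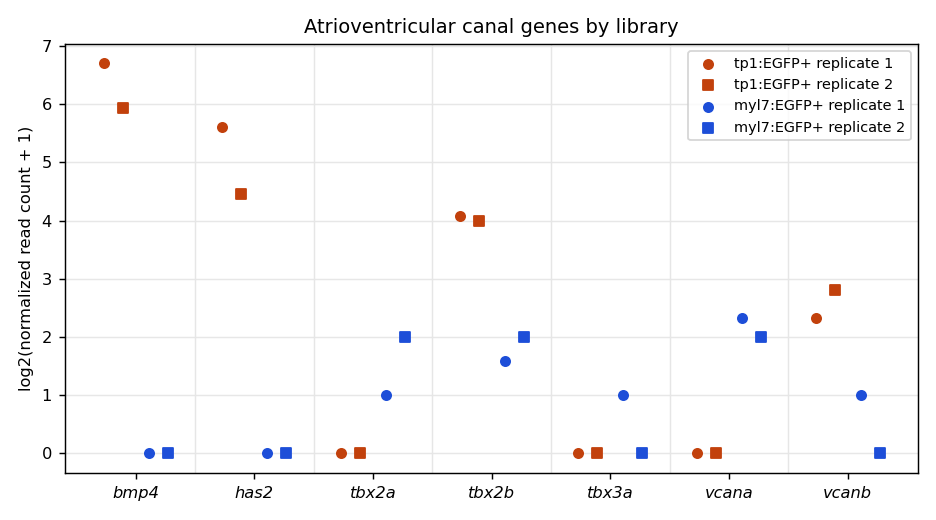
Values of the 7 canal genes in each library, as log2(normalized read count + 1), with tp1:EGFP+ replicates in orange and myl7:EGFP+ replicates in blue (circles replicate 1, squares replicate 2). The tp1:EGFP+ points of bmp4, has2, tbx2b and vcanb lie above both myl7:EGFP+ points, those of tbx2a and vcana lie at 0 below them, and tbx3a stays at or next to 0.

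Among the T-box repressors, tbx2b (ENSDARG00000006120, chromosome 15, 27364394 to 27371340, plus strand) is needed for canal myocardium in zebrafish embryos. It had 16 and 15 normalized counts in tp1:EGFP+ against 2 and 3 in myl7:EGFP+, means of 15.5 ± 0.71 and 2.5 ± 0.71 (SD, n = 2 each). The replicates of each group differed by 1 and the groups did not overlap. Its mean of 9 fell just below the filter. With no filter, the log2(value + 1) difference was 2.25 ± 0.38 (SE; limma adjusted p = 0.0291), in a fit that called 10.9% of 16374 genes higher. The replicate 2 values stand for about 5 reads in tp1:EGFP+ (exact Poisson 95% interval 1.62 to 11.7) and 1 read in myl7:EGFP+ (0.0253 to 5.57).

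The duplicate tbx2a (ENSDARG00000018025, chromosome 5, 56504717 to 56513825, minus strand) had 0 and 0 normalized counts in tp1:EGFP+ against 1 and 3 in myl7:EGFP+. The value of 3 stands for 1 read. With no filter it was not called (log2 difference -1.50 ± 0.54 SE, limma adjusted p = 0.128). The gene tbx3a (ENSDARG00000002216, chromosome 5, 72316803 to 72324371, minus strand), whose mouse counterpart acts with Tbx2 in the canal and conduction system, had 0 and 0 in tp1:EGFP+ against 1 and 0 in myl7:EGFP+. At this depth no difference in tbx3a was detectable. Its duplicate tbx3b, which is not one of the 7, had 0 and 3 in tp1:EGFP+ against 0 and 0 in myl7:EGFP+. Of these T-box repressor genes, tbx2b is the one whose values in tp1:EGFP+ were above those in myl7:EGFP+ in both replicates.

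The versican duplicates had opposite orders. The gene vcanb (ENSDARG00000009401, chromosome 10, 43188678 to 43263885, plus strand) had 4 and 6 normalized counts in tp1:EGFP+ against 1 and 0 in myl7:EGFP+. The gene vcana (ENSDARG00000103515, chromosome 5, 46424437 to 46486028, plus strand), the versican whose transcripts mark the embryonic canal, had 0 and 0 in tp1:EGFP+ against 4 and 3 in myl7:EGFP+. The groups did not overlap for either gene, yet every value was 6 or less, and the replicate 2 values stand for 2 reads of vcanb in tp1:EGFP+ and 1 read of vcana in myl7:EGFP+. With no filter, vcana was called lower (log2 difference -2.16 ± 0.41 SE, limma adjusted p = 0.0377) in a fit that called 14.9% of genes lower, and vcanb was not called (2.06 ± 0.56 SE, limma adjusted p = 0.0734). Whether the 2 versican genes differ in their response was not tested.

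In all, the groups did not overlap for 6 of the 7 canal genes, 4 with tp1:EGFP+ above and 2 with tp1:EGFP+ below. Of the 16374 genes with any value above 0, 58.7% had such groups, 26.7% with tp1:EGFP+ above and 32.0% below, so separation of the groups was common in this table. Values above 0 in tp1:EGFP+ were found for a ligand, a T-box repressor, the hyaluronan synthase and 1 versican gene, and a value of 0 in both tp1:EGFP+ libraries for tbx2a, tbx3a and vcana. Of all 18105 genes, 4864 were at 0 in both tp1:EGFP+ libraries and 3300 in both myl7:EGFP+ libraries. Both counts include the 1731 genes at 0 in all 4 libraries. Zeros in tp1:EGFP+ were thus common in this table.

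No other gene of the table overlapped any of the 7, so reads could not be shared with an overlapping or antisense gene listed there. Of the canal genes, 3 lie on chromosome 5 and the other 4 on a chromosome each. Next to vcana, 4.59 kb away, lies hapln1a, and next to vcanb, 6.03 kb away, lies hapln1b. Both encode link proteins that fasten versican to hyaluronan, and both were listed at 0 in all 4 libraries. The neighbour of tbx3a at 27.2 kb is tbx5a, a T-box activator of chamber genes, with 58 and 63 normalized counts in tp1:EGFP+ against 244 and 134 in myl7:EGFP+ (log2 difference -1.57 ± 0.37 SE, limma adjusted p = 0.0307). On the side of lower coordinates, the nearest listed gene to has2, at 107 kb, was sntb1, with 4 and 0 in tp1:EGFP+ against 163 and 90 in myl7:EGFP+ (log2 difference -5.77, limma adjusted p = 0.0102), an order opposite to that of has2. The nearest gene to bmp4, ddhd1a at 69.5 kb, had 38 and 42 against 38 and 12 and was not called. The genes sntb1 and ddhd1a are named for their position, and sntb1 passed the filter only through its myl7:EGFP+ values.

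Ligand genes of the BMP family went both ways beside bmp4. The list held 11 further genes of the table named for BMPs or growth and differentiation factors, the bmp1 protease genes among them. Of these, 5 were tested, of which 2 rose, 2 fell and 1 was not called (80.0% called, against 34.1% of all tested genes). The other 6 were under the filter, and the 4 called genes were at or next to 0 in 1 group and passed it only through the other. With no filter 3 of the 11 were called higher and 3 lower (54.5%, against 25.7% of all genes). The ligand gene bmp6 had 74 and 36 normalized counts in tp1:EGFP+ against 0 and 0 in myl7:EGFP+, as for bmp4, and bmp7b had 141 and 57 against 0 and 3 (limma adjusted p = 0.00238 and 0.0107). The reverse held for bmp10l, a ligand of trabecular myocardium in its mouse form, and for bmp16. The gene bmp10l had 0 and 0 in tp1:EGFP+ against 509 and 501 in myl7:EGFP+, and bmp16 had 0 and 0 against 253 and 131 (limma adjusted p = 0.00213 for each). The canal ligand genes bmp2a and bmp2b were not analysed here.

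Genes that receive or limit the BMP signal were called in both directions. Among 10 tested receptor and Smad genes, 1 rose and 1 fell. The receptor-activated Smad gene smad9 had 391 and 298 in tp1:EGFP+ against 143 and 115 in myl7:EGFP+ (log2 difference 1.41 ± 0.27 SE, limma adjusted p = 0.0179), and the type I receptor gene bmpr1aa had 106 and 83 against 286 and 252 (-1.51 ± 0.26 SE, limma adjusted p = 0.0126). The type II receptor gene bmpr2b had 164 and 89 in tp1:EGFP+ against 133 and 34 in myl7:EGFP+ and was not called. Of 11 tested antagonists and inhibitory factors, 1 rose and 2 fell. The extracellular BMP antagonist gene nog3 had 72 and 60 in tp1:EGFP+ against 14 and 12 in myl7:EGFP+ (2.26 ± 0.41 SE, limma adjusted p = 0.0152). The inhibitory Smad gene smad6b had 1 and 0 against 29 and 19, and the ubiquitin ligase gene smurf2 had 65 and 69 against 144 and 140 (limma adjusted p = 0.00596 and 0.0297). Of these, smad6b passed the filter only through its myl7:EGFP+ values. Of 5 tested BMP response genes, id3 rose, with 279 and 352 in tp1:EGFP+ against 74 and 103 in myl7:EGFP+ (1.83 ± 0.29 SE, limma adjusted p = 0.0103), while id1 had 53 and 51 against 40 and 16 and was not called. Over these 3 lists and the ligands 10 of 31 tested genes were called (32.3%, against 34.1% of all tested genes), with a median log2 difference of 0.22 against 0.01 over all tested genes. By list, 20.0% of tested receptors and Smads, 27.3% of antagonists and inhibitory factors and 20.0% of response genes were called, beside 80.0% of ligands. With no filter, called genes made up 26.7% of receptors and Smads, 23.1% of antagonists and inhibitory factors and 42.9% of response genes, beside the 54.5% of ligands. In that fit 1 receptor or Smad gene was higher and 3 lower. Antagonists and inhibitory factors had 1 higher and 2 lower, and response genes also 1 higher and 2 lower. Of the 10 calls, 9 were lost without at least 1 library. The exception was bmp10l, while bmp6 lost its call without either myl7:EGFP+ library, bmp16 without either tp1:EGFP+ library, and the other 7 when any single library was left out.

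**Figure D2:**
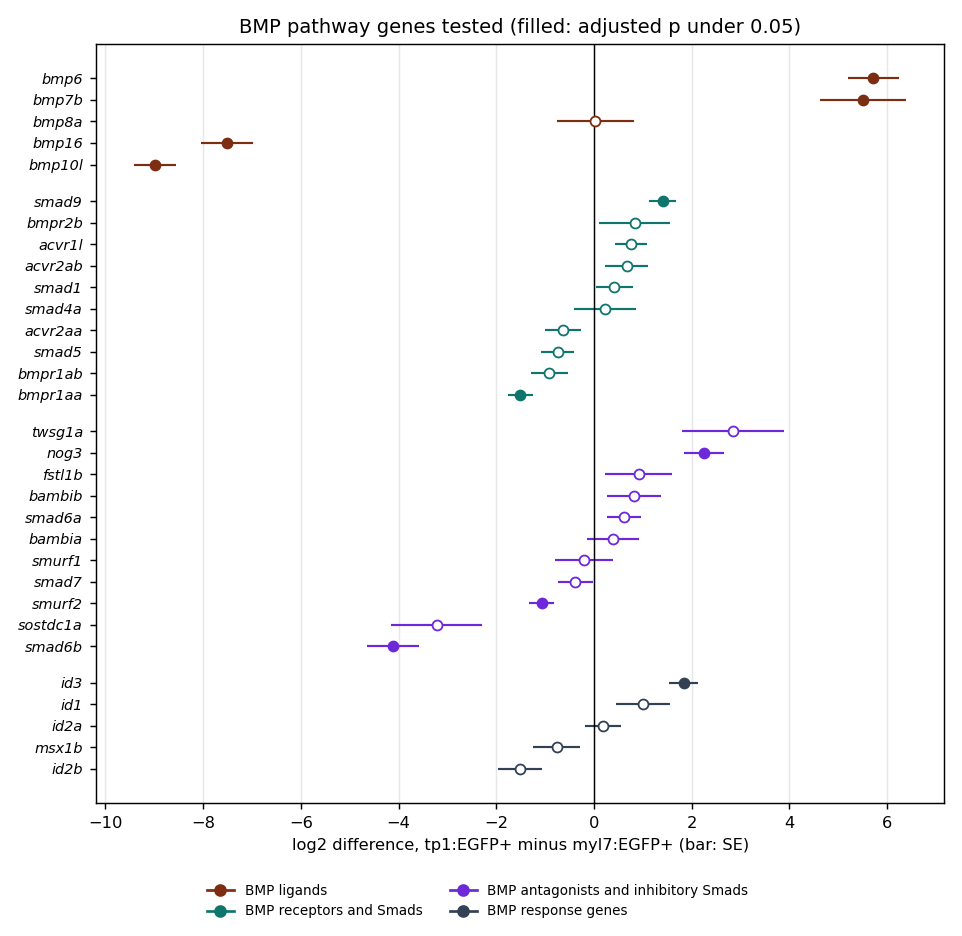
Log2 differences (tp1:EGFP+ minus myl7:EGFP+, on log2(normalized read count + 1), bars SE) of the 31 tested genes of the BMP lists, with filled points at an adjusted p below 0.05. The ligand genes bmp6 and bmp7b lie above 5, bmp16 and bmp10l below -7 and bmp8a next to 0, while receptors, Smads and response genes lie nearer 0 than the first 4.

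Matrix genes that make, bind or cleave hyaluronan and versican were measured beside has2, vcana and vcanb. Over both matrix lists 14 of 19 tested genes were called (73.7% against 34.1%), 9 higher and 5 lower, with a median log2 difference of 1.04 against 0.01 over all tested genes. Under the filter were 27 of the 46 matrix genes, and genes such as adamts9, tnr and acana passed it only through the group where they are high, so this share describes the tested genes and supports nothing further. With no filter 14 of the 34 matrix genes with any value above 0 were called (41.2%), against 25.7% of all 16374 genes. In the hyaluronan list 3 of 8 tested genes rose and 3 fell. The link protein gene hapln3, named after its values were seen, was among those that fell (log2 difference -3.53 ± 0.75 SE, limma adjusted p = 0.0232). The other synthase genes were at or near 0: has1 had 7 and 6 in tp1:EGFP+ against 0 and 0 in myl7:EGFP+, and has3 was listed at 0 in all 4 libraries. Of the genes that supply sugar precursors, ugp2a and ugp2b, which encode UDP-glucose pyrophosphorylases, fell, with 36 and 15 in tp1:EGFP+ against 166 and 118 in myl7:EGFP+ and 2 and 3 against 78 and 53 (limma adjusted p = 0.0207 and 0.00452). The gene uap1, which encodes a UDP-N-acetylglucosamine pyrophosphorylase, rose, with 106 and 77 in tp1:EGFP+ against 26 and 28 in myl7:EGFP+ (log2 difference 1.71 ± 0.36 SE, limma adjusted p = 0.0224). The precursor gene ugdh, which encodes the dehydrogenase that makes the glucuronic acid donor of hyaluronan, had 19 and 15 in tp1:EGFP+ against 1 and 0 in myl7:EGFP+ and was under the filter. Both uap1 and ugdh are named after their values were seen. The gene cemip, whose human form takes part in hyaluronan breakdown, rose to 249 and 161 in tp1:EGFP+ against 22 and 19 in myl7:EGFP+ (log2 difference 3.23 ± 0.36 SE, limma adjusted p = 0.00406). The gene tnfaip6, which encodes a hyaluronan-binding protein, had 68 and 54 in tp1:EGFP+ against 2 and 3 in myl7:EGFP+ (4.15 ± 0.47 SE, limma adjusted p = 0.00429). The hyaluronan receptor genes cd44a and cd44b were near or at 0, with 0 and 3 for cd44a in tp1:EGFP+ against 0 and 0 in myl7:EGFP+, and 0 in all 4 libraries for cd44b. Other receptor genes of the list are not described here.

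Among relatives and proteases of versican, 6 of 11 tested genes rose and 2 fell. The protease genes adamts9 and adamts1, whose mammalian forms cleave versican, both rose. Values of adamts9 were 141 and 143 in tp1:EGFP+ against 0 and 0 in myl7:EGFP+, and those of adamts1 were 342 and 128 against 26 and 3 (limma adjusted p = 0.00213 and 0.0329). The aggrecan gene acana, a relative of the versicans, had 29 and 21 in tp1:EGFP+ against 0 and 0 in myl7:EGFP+, and tnr, which encodes a tenascin, had 50 and 36 against 0 and 0 (limma adjusted p = 0.00213 for each). The fibrillin gene fbn2b had 39 and 39 in tp1:EGFP+ against 4 and 3 in myl7:EGFP+ (3.16 ± 0.45 SE, limma adjusted p = 0.00777). The 2 genes that fell, named after their values were seen, were chsy1 and csgalnact2, which act in making chondroitin sulfate, the sugar chain that versican carries. They had 7 and 12 in tp1:EGFP+ against 112 and 40 in myl7:EGFP+, and 0 and 3 against 15 and 22 (limma adjusted p = 0.0334 and 0.0303). All 14 calls of the matrix lists were lost without at least 1 library: those of adamts9, tnr and acana without either myl7:EGFP+ library, and those of the other 11 when any single library was left out.

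**Figure D3:**
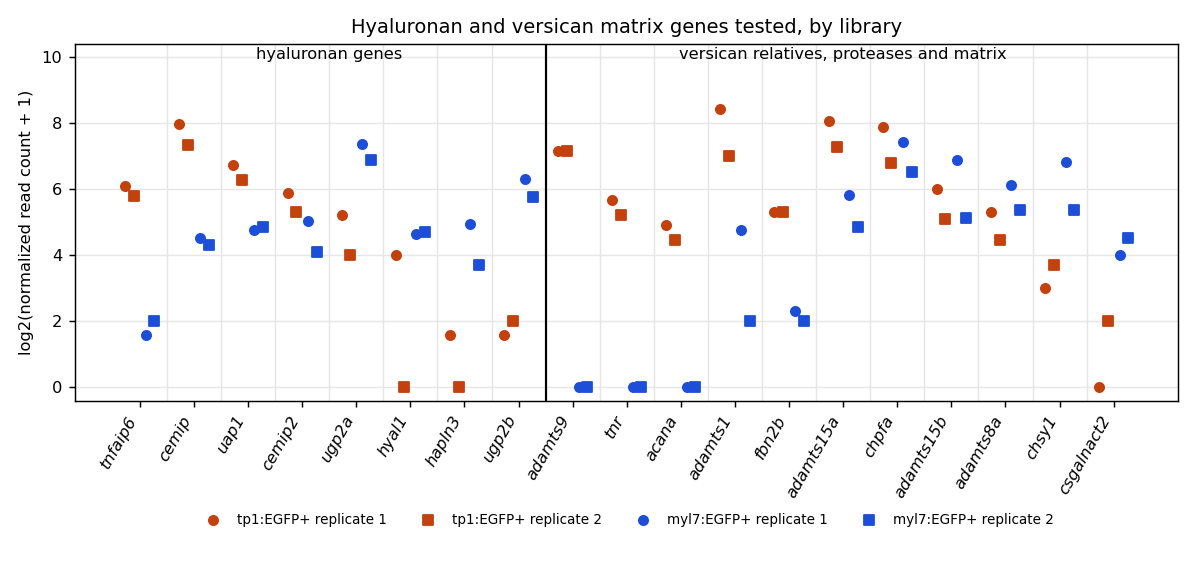
Values of the 19 tested hyaluronan and versican matrix genes in each library, as log2(normalized read count + 1), ordered within each list by the difference between groups. From tnfaip6 to uap1 and from adamts9 to adamts15a the orange tp1:EGFP+ points lie above the blue myl7:EGFP+ points, and at the right of each list the order is reversed.

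Other T-box genes and regulators of the canal and cushions were measured beside tbx2b. Of 5 further T-box genes tested, 1 rose and 1 fell (40.0% called, against 34.1% of all tested genes). The gene tbr1a rose, with 34 and 30 in tp1:EGFP+ against 0 and 0 in myl7:EGFP+ (limma adjusted p = 0.00213), and passed the filter only through its tp1:EGFP+ values. The gene tbx5a fell, as given above. With no filter 1 of 9 further T-box genes was called (11.1%, against 25.7% of all genes), and the call of tbx5a was lost (limma adjusted p = 0.0576). The gene tbx20, a T-box factor of the whole myocardium, had 91 and 63 in tp1:EGFP+ against 83 and 65 in myl7:EGFP+, a log2 difference of 0.04 with a 95% interval from -0.84 to 0.92. Of 8 tested regulators 3 rose and 0 fell (37.5% called, against 34.1% of all tested genes), and 8 of the 16 genes in the table were under the filter. With no filter 5 of 14 were called higher and 1 lower (42.9%, against 25.7% of all genes). The Notch target hey2 had 435 and 450 in tp1:EGFP+ against 54 and 68 in myl7:EGFP+ (2.85 ± 0.25 SE, limma adjusted p = 0.00221). The gene twist1b, whose mouse form is expressed in cushion mesenchyme, had 66 and 80 against 1 and 3, and the cardiac GATA factor gene gata5 had 729 and 697 against 380 and 326 (limma adjusted p = 0.00462 and 0.0403). Of these, twist1b passed the filter only through its tp1:EGFP+ values. The gene foxn4, an activator of tbx2b in zebrafish embryos, had 26 and 15 in tp1:EGFP+ against 32 and 16 in myl7:EGFP+ and was not called. The related Notch target hey1 was under the filter, with 4 and 3 in tp1:EGFP+ against 0 and 0. Leaving out any single library ended the calls of tbx5a, hey2, twist1b and gata5, whereas tbr1a was called each time.

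Genes of working chamber myocardium, several of them repressed by Tbx2 or Tbx3 in mouse, included 2 that fell and 0 that rose among 9 tested (22.2% called, against 34.1% of all tested genes). With no filter this order turned round: 4 of 10 were called, all 4 of them lower (40.0%), against 25.7% of all 16374 genes, so the share does not place the list above or below the background. The 2 were the connexin gene gja5b, with 0 and 0 in tp1:EGFP+ against 368 and 131 in myl7:EGFP+, and the sodium channel gene scn5lab, with 0 and 0 against 398 and 215 (limma adjusted p = 0.00213 for each, lost without either tp1:EGFP+ library). Both passed the filter only through their myl7:EGFP+ values. The natriuretic peptide genes had wide errors: nppa had 1000 and 1740 in tp1:EGFP+ against 832 and 2487 in myl7:EGFP+ (-0.13 ± 0.70 SE), and nppb had 526 and 1231 against 494 and 2702 (-0.52 ± 0.94 SE). Neither was called. Of 3 tested genes of pacemaker cells and slow conduction, 1 rose and 0 fell (33.3% called, against 34.1% of all tested genes). It was the potassium channel subunit gene kcne4, with 44 and 27 in tp1:EGFP+ against 10 and 9 in myl7:EGFP+ (limma adjusted p = 0.0485, lost when any single library was left out). With no filter 1 of 7 genes of this list was called higher and 1 lower (28.6%, against 25.7% of all genes).

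**Figure D4:**
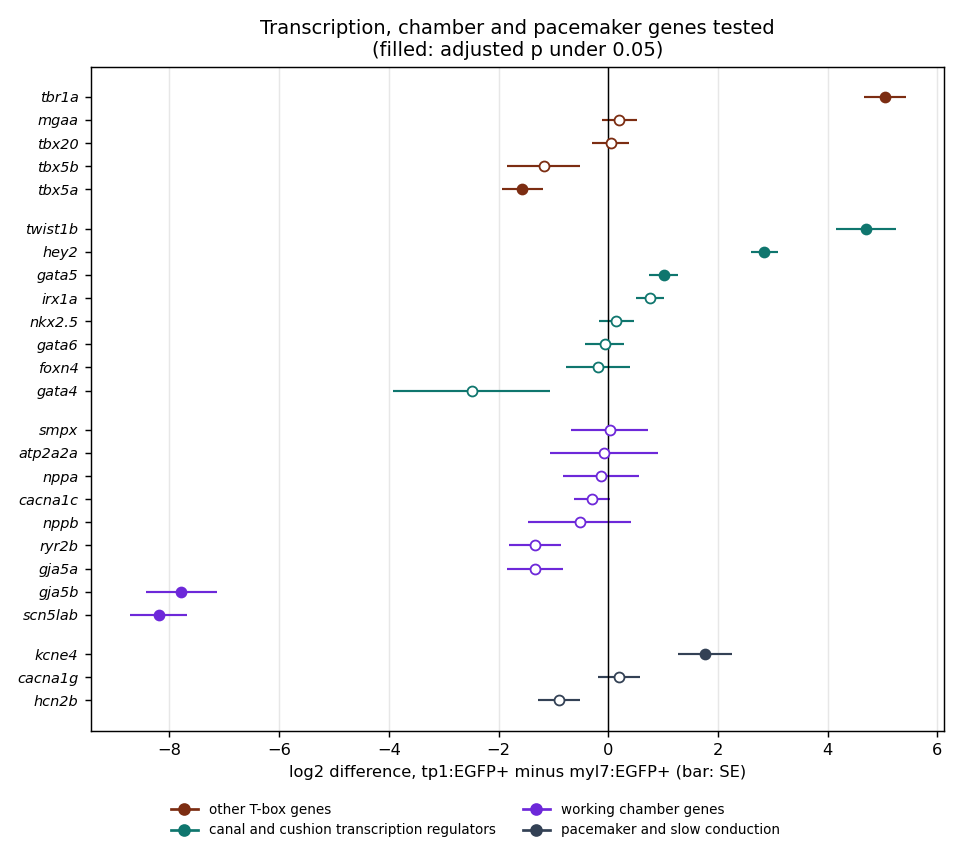
Log2 differences (tp1:EGFP+ minus myl7:EGFP+, on log2(normalized read count + 1), bars SE) of the tested T-box, regulator, working chamber and pacemaker genes, with filled points at an adjusted p below 0.05. Filled points lie right of 0 for tbr1a, twist1b, hey2, gata5 and kcne4, and left of 0 for tbx5a, gja5b and scn5lab.

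Valve and cushion endocardium also makes has2 in embryos, so its genes and those of other cell types were set beside the canal genes. Of 14 tested genes listed under valve and cushion endocardium, 2 rose and 6 fell, a share called of 57.1%, against 34.1% of all tested genes. Being on this list does not show which cells made a transcript. Some of them, such as pkd2 and klf2a, passed the filter only through the group where they are high, so this share supports nothing. With no filter 1 of 18 was called higher and 7 lower (44.4%, against 25.7% of all genes). The cushion factor gene nfatc1 had 18 and 12 in tp1:EGFP+ against 79 and 47 in myl7:EGFP+ and the vascular cadherin gene cdh5 had 22 and 12 against 212 and 112 (limma adjusted p = 0.0358 and 0.0108). Both are also counted in the endothelial and endocardial marker list below. The growth factor gene vegfaa had 32 and 36 in tp1:EGFP+ against 641 and 951 in myl7:EGFP+, and the transcription factor gene egr1 had 185 and 191 against 1452 and 2002 (limma adjusted p = 0.00213 and 0.00268). The channel gene pkd2 rose, with 31 and 15 in tp1:EGFP+ against 0 and 0 in myl7:EGFP+ (limma adjusted p = 0.00369). The receptor gene notch1b had 78 and 36 against 59 and 37 and was not called. All 8 calls were lost without at least 1 library.

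The counts of marker genes below stand beside 16.1% of all tested genes called higher and 18.0% called lower. Their counts at 0 stand beside 4864 of all 18105 genes at 0 in both tp1:EGFP+ libraries and 3300 in both myl7:EGFP+ libraries. Zeros were thus more common in tp1:EGFP+ over the whole table. The endothelial and endocardial marker list, with 9 of 13 tested genes lower and 2 higher, summed to 604 and 511 normalized counts in tp1:EGFP+ against 2060 and 1464 in myl7:EGFP+. Of its 19 genes 7, among them tie1, erg and fli1a, were at 0 in both tp1:EGFP+ libraries, and 2 were at 0 in both myl7:EGFP+ libraries. One of the latter was cldn5b, called higher with 29 and 27 in tp1:EGFP+ against 0 and 0 in myl7:EGFP+ (limma adjusted p = 0.00213). It reached the test only through its tp1:EGFP+ values, and tie1 only through its myl7:EGFP+ values. With no filter 2 of the 19 genes were called higher and 12 lower (73.7%, against 25.7% of all genes). The mural and smooth muscle list summed to 2494 and 4359 in tp1:EGFP+ against 374 and 282 in myl7:EGFP+. This order was that of bmp4 and has2, and also that of the erythroid and thrombocyte lists below. Of the 12 genes of the mural list 5 were under the filter and 7 were called higher. Of these, myh11a and pdgfrb reached the test only through their tp1:EGFP+ values. With no filter 8 of the 12 were called higher and 0 lower, in a fit that called 10.9% of all genes higher. Its genes myh11a, pdgfrb, rgs5a and mylka were at 0 in both myl7:EGFP+ libraries, and myh11a had 60 and 48 in tp1:EGFP+. In the other direction, 2 of the 12 genes were at 0 in both tp1:EGFP+ libraries. In the epicardial and fibroblast list 5 of 10 tested genes rose and 1 fell, and the sums were 586 and 527 in tp1:EGFP+ against 587 and 564 in myl7:EGFP+. There col12a1a, fn1b and postnb were at 0 in both myl7:EGFP+ libraries, wt1b and lum were at 0 in both tp1:EGFP+ libraries, and krt4 had 232 and 179 in tp1:EGFP+ against 1 and 0. Both col12a1a and krt4 reached the test only through their tp1:EGFP+ values. With no filter 5 of 15 genes of this list were called higher and 1 lower (40.0%, against 25.7% of all genes). The marker calls were lost without at least 1 library for 9 of 11 endothelial, 7 of 7 mural and 6 of 6 epicardial and fibroblast genes. Marker genes listed at 0 are named for that value. The part of mural, epicardial, fibroblast or blood cells in the bmp4 and has2 values was not tested. In bulk RNA fewer cells of a type cannot be told apart from less RNA per cell.

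The remaining marker lists, read against the same shares of all tested genes, were erythroid (6 of 8 tested genes higher, sums of 269 and 465 in tp1:EGFP+ against 49 and 34 in myl7:EGFP+), leukocyte (1 of 3 higher and 2 lower, sums of 26 and 45 against 76 and 83), thrombocyte (2 of 3 higher and 1 lower, sums of 824 and 814 against 61 and 24) and neural (1 of 2 higher and 1 lower, sums of 43 and 45 against 44 and 49). The calls lost without at least 1 library were 6 of 6 erythroid, 3 of 3 leukocyte, 3 of 3 thrombocyte and 1 of 2 neural ones. Genes such as hbba2, epb41b and thbs1b passed the filter only through their tp1:EGFP+ values, so these counts of tested genes support nothing. With no filter 6 of 9 erythroid genes were called higher and 0 lower, and 2 of 5 thrombocyte genes higher and 1 lower. The leukocyte list then had 0 genes called higher and 3 lower of 8, and the neural list 1 higher and 2 lower of 7. That fit called 10.9% of all genes higher and 14.9% lower. The leukocyte genes ptprc, coro1a and mpeg1.1 were at 0 in all 4 libraries. Globin genes can share reads between copies.

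The genes nearest in pattern to each canal gene were found as the 3 with the smallest Euclidean distance over the 4 libraries on log2(value + 1), among tested genes. Genes that bear only a clone name were left out of this search. For bmp4 these were tmem176l.3a (distance 0.14), zrsr2 (0.16) and chl1b (0.21), and chl1b had 109 and 69 normalized counts in tp1:EGFP+ against 0 and 0 in myl7:EGFP+. For has2 they were RUNDC1 (0.03), grid2ipa (0.12) and s1pr1 (0.19), the last with 42 and 21 against 0 and 0. For tbx2b they were tmem218 (0.66), ccna1 (0.74) and mogat3a (0.76). Candidates had a mean of at least 10, so the distances of the lowest canal genes are bounded by that filter. The nearest lay at 2.43 for vcanb (hbaa1, then ttc17 and abhd11), at 2.99 for vcana (lrrc8c, then arhgef7b and cnnm2a) and at 3.98 for tbx2a (fance, then tdg.2 and meis2a). The value of tbx3a was above 0 in 1 library only and it was not matched.

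The ontology terms in the deposited table attach the word atrioventricular to 15 genes, of which has2 is the 1 canal gene of the 7. Of the 14 that were tested, 3 were higher and 2 lower (35.7% called, median log2 difference 0.60), close to the 34.1% called over all tested genes. Beside has2 and tbx5a these were prss23, with 566 and 447 in tp1:EGFP+ against 138 and 40 in myl7:EGFP+, jupa, which encodes plakoglobin, with 489 and 402 against 187 and 183, and the flow-responsive factor gene klf2a, with 3 and 0 against 26 and 16 (limma adjusted p = 0.0269, 0.0177 and 0.0280). The calls of prss23, jupa, klf2a and tbx5a were lost when any single library was left out, and that of has2 without either myl7:EGFP+ library. The genes prss23, jupa and klf2a are named after their values were seen.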

How the data were processed

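RNA-seq of 4 libraries was analysed. Per the labels' protocols, 1 to 2 ng of total RNA was amplified as full-length cDNA with a SMART-Seq low-input kit. The submitters' processing notes list DESeq2 1.26.0, Subread 1.6.5, featureCounts, STAR 2.6.1d and Trimmomatic 0.39, with danRer11 and GRCz11. Their settings and the treatment of strand are nowhere stated in the sources used here. The authors deposited a score, namely read counts normalized between libraries and rounded to whole numbers, so no count model was fitted.

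Values were tested with limma 3.58.1 (R 4.3.3, trend option) on log2(value + 1) over the 9921 genes with a mean of at least 10, with Benjamini-Hochberg adjustment and a threshold of 0.05. Differences are tp1:EGFP+ minus myl7:EGFP+, and this scale understates the change of low genes. In replicate 2, 98.8% (tp1:EGFP+) and 99.1% (myl7:EGFP+) of values up to 100 lay exactly on the rounded step that gives the worth of 1 read. The fit and the step search were tested on simulated data. Poisson intervals cover counting error only. The labels do not state that replicates came from separate fish, so p-values measure only the spread between these libraries. Alternatives were other added constants, filters, scalings and fits, the replicate number as a block, and each library left out.

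The canal genes and all lists were chosen with earlier results of these data known. Named by rule were the canal genes, the 3 nearest in pattern to each, up to 4 called genes of smallest p per list (2 per marker list, or the 2 of highest mean if none was called) and 24 further symbols. The text says where others were added, apart from genes named only in captions or in the list of lost calls. Intervals, tables and plots used Python 3.11.15, scipy 1.17.1, numpy 2.4.6, pandas 2.3.3 and matplotlib 3.10.9.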

Additional observations from a re-analysis of the deposited data

How the results depend on the processing

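The log2 differences of bmp4 and has2 were positive under every alternative that gave a value. Neither could be tested with a filter at a mean of 50. Leaving out 1 library gave 5.93 to 6.70 for bmp4 (adjusted p 0.00185 to 0.0868) and 4.46 to 5.61 for has2 (0.00135 to 0.114), and the calls were lost without myl7:EGFP+ replicate 1 or 2, at 6.32 and 5.04. A lone library was then assumed to vary like the other group. Over the other alternatives the ranges were 3.15 to 7.31 for bmp4 (adjusted p 4.09e-05 to 0.0139) and 2.08 to 6.01 for has2 (0.000137 to 0.0160), all called. The 1599 higher and 1783 lower genes became 709 and 634 with a filter at a mean of 50, where fewer genes were tested, and 69 to 271 and 137 to 365 with 1 library left out, where fewer samples were. Called genes of the related lists numbered 40, against 21 with that filter and 5 to 10 with 1 library left out. Of these 40, 38 lost the call without at least 1 library, 13 lost it under another alternative (adamts1, chsy1, csgalnact2, gata5, hapln3, kcne4, klf2a, nfatc1, piezo1, smad9, smurf2, tbx5a and uap1), and 0 changed sign.

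Replicate numbers are shared between groups, but no label says that they mark a shared sort. Deviations of replicate 1 from the group mean correlated between groups over 9921 genes (r = 0.442). With the replicate number as a block, 2845 of the 9921 genes were higher and 2876 lower, against 1599 and 1783 without it. Both bmp4 and has2 remained called. Called genes of the related lists then numbered 57 against 40. In the BMP receptor and Smad list 7 of 10 tested genes were called against 2, with bmpr2b among the genes higher in tp1:EGFP+. The chamber list had 4 of 9 called against 2, and the regulators 5 of 8 against 3. Calls rose over all tested genes as well, so these rises are no result about the lists. Replicate 2 libraries were shallow, so a value of 3 there is 1 read.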
